A study of Mus musculus with 7 samples.

Results

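The fibronectin and matrix genes described here were 8 genes, Fn1, Emilin2, Dab2, Tgfbi, Thbs1, Vcan, P3h2 and Npnt, chosen by symbol from the 40743 genes of the deposited expression table. The study asked how retinal microglia that lack interferon regulatory factor 8 (IRF8) respond to laser injury, which breaks the membrane beneath the retina and is followed by choroidal neovascularisation (CNV), the growth of vessels from the choroid. RNA was sequenced in 7 libraries, of which 3 came from mice without laser and 4 from mice killed 7 days after it. All mice were labelled Irf8 KO, and the methods give the genotype Irf8-/- with Cx3cr1GFP/+ on a C57BL/6J background, so both groups are described as carrying the deletion of Irf8 and 1 copy of Cx3cr1 replaced by GFP. The age of these mice was not given in the sources used here beyond the word adult, and the wild-type libraries were not analysed here.

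Each library came from about 10000 living CD45low CD11b+ Cx3cr1GFP/+ Ly6C- Ly6G- cells, pooled from 3 to 4 mice. The central 70% of the retina was taken from lasered mice only, so an effect of the laser and of retinal position cannot be told apart. Nothing in the labels ties a replicate number to a separate experiment, so a p-value here measures the spread between pools. Total reads were between 20427558 and 36022954 in unlasered and between 37133297 and 45919042 in lasered libraries, which did not overlap (exact permutation test on the means, two-sided p = 0.0571, which no split of 3 against 4 can undercut). Levels are given as CPM throughout, that is, reads of a gene relative to all counted reads of its library. A level of 3 reads corresponded to between 0.0653 and 0.147 CPM, and this limit covers counting error only.

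The extracellular matrix is the protein and sugar scaffold around cells. Fibronectin is secreted as a dimer, is assembled into fibrils by integrins on the cell surface, and forms an early provisional matrix in healing wounds, where thrombospondin, versican and the TGF-beta-induced protein are also laid down. Microglia, the resident macrophages of the retina, touch this scaffold through integrins and clear parts of it by endocytosis. Several of these proteins carry the tripeptide Arg-Gly-Asp (RGD), which integrins recognise.

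The bases that code for RGD are shown for the 4 secreted members that hold them, because integrins can recognise this tripeptide. The letters alone do not mark a ligand. They were read from the GENCODE M21 coding sequence (GRCm38), 18 bases on either side, with the RGD codons in capitals. The stretch of Fn1 lay in exon 30 of 46, at chr1:71606728-71606772 on the minus strand. Those of Tgfbi (chr13:56636668-56637181, plus strand), Thbs1 (chr2:118122671-118122908, plus strand) and Npnt (chr3:132891478-132904691, minus strand) each span 2 exons, so their coordinates include an intron that is not printed.
Fn1: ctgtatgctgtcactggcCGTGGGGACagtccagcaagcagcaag
Tgfbi: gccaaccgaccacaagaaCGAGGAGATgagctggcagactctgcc
Thbs1: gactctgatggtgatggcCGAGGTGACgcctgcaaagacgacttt
Npnt: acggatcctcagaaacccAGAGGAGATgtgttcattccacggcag
The codons of the tripeptide differ between the 4 genes. In the encoded proteins the tripeptide began at residue 1614 of 2477 in Fn1, with a further RGD at residue 2181, at residue 642 of 683 in Tgfbi, at residue 927 of 1171 in Thbs1 and at residue 430 of 609 in Npnt. Dab2, which stays inside the cell, also held the letters RGD, at residue 64 of 766, while Emilin2, Vcan and P3h2 held none. Across 21747 coding genes 7.19% had at least 1 RGD, against 5 of 8 members. No allowance was made for protein length, and a match is a description of the letters, not of binding.

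Fn1, fibronectin itself, and Emilin2, a matrix glycoprotein of the elastin microfibril interface, were the 2 members called higher after laser. Over 17 alternative settings the call held in 5 for Fn1 and in 7 for Emilin2. Fn1 averaged 131 ± 136 CPM (SD, n = 3) in unlasered and 535 ± 219 CPM (SD, n = 4) in lasered libraries, and Emilin2 averaged 63.1 ± 15.2 and 108 ± 15.0 CPM. Tgfbi, Thbs1 and Dab2 were well detected and did not pass the test, while Vcan, P3h2 and Npnt were too low to be tested, with 1 to 43 reads in a library. Of the 8 members, 5 had at least 1 CPM in at least 3 libraries and were tested with limma on log2(CPM + 1). With Benjamini-Hochberg adjustment over all 17496 tested genes, 2 members were higher and 0 were lower, where 3.86% of tested genes were called higher (676 genes) and 3.07% lower (537 genes). The median log2 difference of the 5 tested members was 0.30, and that of all tested genes was -0.01. Without the filter the 3 untested members had negative log2 differences, -0.75 for P3h2, -0.63 for Vcan and -0.15 for Npnt. The median of 0.30 leaves them out, and the list was chosen with earlier results of these data known.

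**Figure D1:**
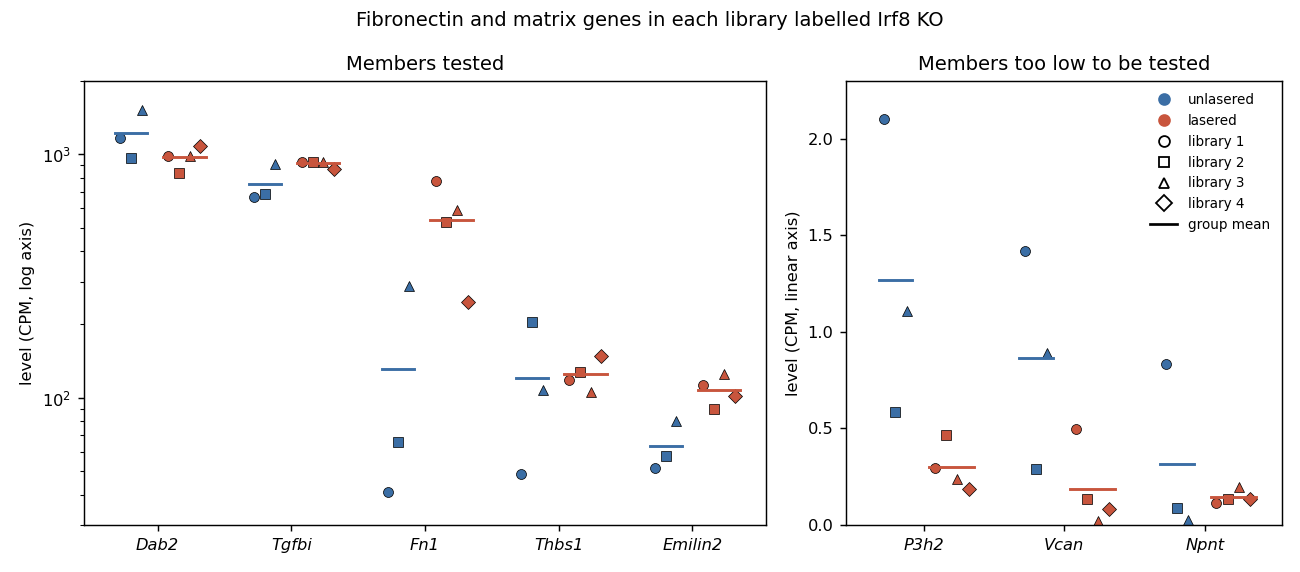
Level of each member in every library, in CPM, on a log axis for the 5 tested members (left) and on a linear axis for the 3 that were too low to be tested (right). Points are libraries, with shape giving the library number, and lines are group means. Fn1 ranges from 41.1 to 288 CPM in unlasered and from 248 to 776 CPM in lasered libraries, so the groups overlap, while those of Emilin2 do not.

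Fibronectin had the widest range of the 5 tested members. Fn1 (ENSMUSG00000026193) lies on the minus strand of chromosome 1 at 71585520 to 71653200 (GRCm38, here and for the genes that follow). Its level was 41.1, 65.6 and 288 CPM in unlasered libraries 1 to 3 and 776, 525, 593 and 248 CPM in lasered libraries 1 to 4. Unlasered library 3 stood above lasered library 4, so the groups overlapped, and the other 3 lasered libraries were above all unlasered ones. The log2 difference was 2.41 (SE 0.61, 95% confidence interval 1.03 to 3.79, limma, adjusted p = 0.0485). By mean CPM, which also reflects gene length, Fn1 moved from rank 1268 to rank 201 among all genes. Per kilobase of exons it moved from rank 5226 to rank 1340 among 40605 genes. The unlasered mean behind these ranks was raised by library 3.

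The call of Fn1 was close to the threshold of 0.05 and rested on single libraries. It was lost, with limma adjusted p = 0.133, 0.131, 0.119, 0.116 and 0.115, when unlasered library 1, unlasered library 2, lasered library 1, lasered library 2 or lasered library 3 was left out, and it held without unlasered library 3 (log2 difference 3.23, adjusted p = 0.0122) or lasered library 4 (2.74, adjusted p = 0.0478). It was also lost under limma without a filter on low values (adjusted p = 0.110), with a mean of at least 10 CPM (adjusted p = 0.105) and without trend and robust variances (adjusted p = 0.0597). A replicate block gave a log2 difference of 2.74 with limma adjusted p = 0.110. On whole reads recovered from the table, edgeR gave a log2 difference of 2.04 with adjusted p = 0.109 and DESeq2 gave 2.04 with adjusted p = 0.0650. Over the 17 alternatives tried the difference stayed positive, between 1.84 and 3.23.

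Fn1 also differed widely between libraries of one group. Its coefficient of variation (CV, the SD as a percent of the mean) was 103% in unlasered and 40.9% in lasered libraries. Among 1672 genes with at least 100 CPM in both groups the median CV was 15.0% and 10.5%, and Fn1 stood at percentile 99.9 and 98.6. Its highest unlasered library held 7.01 times the level of the lowest. Of the other members in this set, Thbs1 had the widest spread, with a CV of 65.5% among unlasered libraries (percentile 99.2), against 14.3% among lasered ones. Tgfbi lay at the other end, with a CV of 3.55% among lasered libraries (percentile 4.07).

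Emilin2 (ENSMUSG00000024053, chromosome 17, 71252172 to 71311978, minus strand) encodes a secreted multimeric glycoprotein of the EMILIN family. It read 51.5, 57.3 and 80.3 CPM in unlasered and 113, 90.05, 125 and 102 CPM in lasered libraries. Every lasered library was above every unlasered one, a pattern found in 10.4% of tested genes. The log2 difference was 0.78 (SE 0.18, 95% confidence interval 0.37 to 1.19, limma, adjusted p = 0.0387), with a narrower interval than that of Fn1.

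The call of Emilin2 held on recovered reads, with adjusted p = 0.036 in edgeR and 0.00183 in DESeq2. It was lost under limma when any library other than unlasered library 3 was left out, with adjusted p = 0.109 and 0.101 without unlasered libraries 1 and 2, and 0.104, 0.0650, 0.1 and 0.0690 without lasered libraries 1 to 4. It was also lost under limma without a filter on low values (adjusted p = 0.0947). The same held without trend and robust variances (limma adjusted p = 0.0544) and with a replicate block (limma adjusted p = 0.110). The direction did not change over the 17 alternatives, where the log2 difference was between 0.65 and 0.96.

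**Figure D2:**
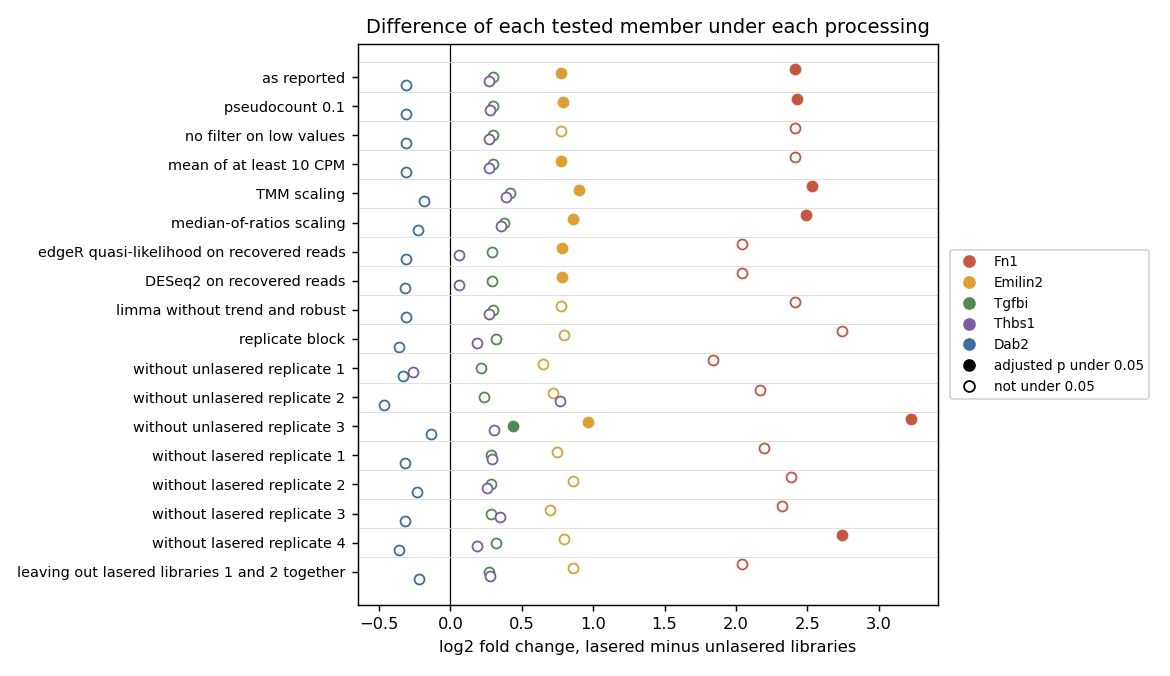
Log2 difference (lasered minus unlasered libraries) of the 5 tested members under the reported processing and the 17 alternatives, where filled points have an adjusted p under 0.05. Fn1 lies between 1.84 and 3.23 and Emilin2 between 0.65 and 0.96, and open points show where either call was lost.

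Tgfbi (ENSMUSG00000035493, chromosome 13, 56609523 to 56639562, plus strand) encodes the TGF-beta-induced protein, an RGD-bearing adhesion protein known in the eye for its deposits in corneal dystrophies. It read 666, 686 and 910 CPM in unlasered and 934, 933, 932 and 868 CPM in lasered libraries. Unlasered library 3 was again the highest of its group and lay above lasered library 4. The log2 difference of 0.30 (SE 0.13, 95% confidence interval 0.00 to 0.59) did not pass the test (limma, adjusted p = 0.216). Without unlasered library 3 it was 0.44 with adjusted p = 0.0343, the only setting of the 17 in which it passed.

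Thbs1 (ENSMUSG00000040152, chromosome 2, 118111876 to 118127133, plus strand) encodes thrombospondin 1, which binds CD36 and CD47, restrains vessel growth and can release TGF-beta from its latent form. Its level was 48.8, 205 and 108 CPM in unlasered libraries and 119, 128, 106 and 148 CPM in lasered ones. All lasered libraries lay inside the range of the unlasered ones. The log2 difference was 0.27 with a wide interval, -0.61 to 1.15 (SE 0.39, limma, adjusted p = 0.737), and its sign turned to -0.26 (adjusted p = 0.66) without unlasered library 1. The interval holds changes of either sign, so none was detectable at this spread.

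Dab2 (ENSMUSG00000022150, chromosome 15, 6299788 to 6440712, plus strand) is no matrix protein but an adaptor that links cargo receptors, integrins among them, to clathrin, and it also acts in TGF-beta signalling. It read 1162, 966 and 1525 CPM in unlasered and 987, 835, 984 and 1077 CPM in lasered libraries. The groups overlapped, with unlasered library 3 highest and lasered library 2 lowest. Dab2 was the one tested member with a negative log2 difference, -0.31 (SE 0.16, 95% confidence interval -0.67 to 0.06, limma, adjusted p = 0.305). It did not pass under any of the 17 alternatives, where it lay between -0.46 and -0.13.

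Fn1, Emilin2, Dab2 and Tgfbi all had their highest unlasered value in unlasered library 3, and Thbs1 had its highest in unlasered library 2. Differences between genes in CPM also reflect gene length, so levels of the members were compared only as CPM per kilobase of exons. On that scale Tgfbi (200 ± 35.9, SD, n = 3) and Dab2 (166 ± 38.6) led in unlasered libraries and their ranges overlapped. Thbs1 (19.9 ± 13), Emilin2 (11.5 ± 2.77) and Fn1 (11.3 ± 11.6) came next, each range overlapping that of its neighbour. P3h2, Npnt and Vcan followed below 1 CPM per kilobase, at 0.340 ± 0.208, 0.0628 ± 0.0892 and 0.0599 ± 0.0390.

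In lasered libraries the order per kilobase of exons was Tgfbi (243 ± 8.64, SD, n = 4), Dab2 (132 ± 13.7), Fn1 (45.8 ± 18.8), Thbs1 (20.6 ± 2.94) and Emilin2 (19.5 ± 2.72). Tgfbi did not overlap with Dab2, nor Dab2 with Fn1, while Fn1 overlapped with Thbs1 and Thbs1 with Emilin2. Fn1 thus moved from the fifth place among the 8 members to the third. With coding length in place of exonic length, Dab2 stood above Tgfbi in unlasered libraries, and no other place changed.

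**Figure D3:**
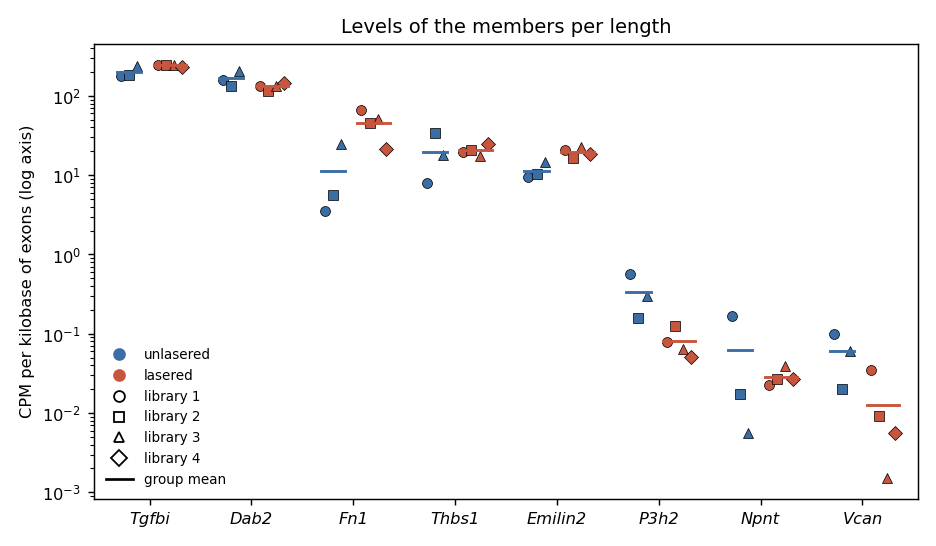
Level of the 8 members per length, in CPM per kilobase of exons on a log axis, with 1 point for each library and lines at the group means. Tgfbi and Dab2 lie above 100 CPM per kilobase in every library, and P3h2, Npnt and Vcan below 1. Fn1 moves from 11.3 to 45.8 between the group means.

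The remaining members were too scarce for a test. P3h2 encodes a prolyl 3-hydroxylase that modifies collagen chains, basement membrane collagen IV in particular. It lies on chromosome 16 (25959288 to 26105784, minus strand) and read 2.11, 0.584 and 1.11 CPM in unlasered and 0.295, 0.468, 0.240 and 0.189 CPM in lasered libraries, from 20 to 43 and from 7 to 21 reads. Every lasered library was below every unlasered one, a pattern found in 10.8% of the 38566 genes with any read.

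Vcan encodes versican, a large chondroitin sulphate proteoglycan that is also abundant in monocytes. It lies on chromosome 13 (89655312 to 89742509, minus strand) and read 1.42, 0.292 and 0.888 CPM in unlasered and 0.499, 0.134, 0.0218 and 0.0808 CPM in lasered libraries. Lasered library 1 was above unlasered library 2, so the groups overlapped, and lasered libraries 3 and 4 were at or under 3 reads.

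Npnt encodes nephronectin, a basement membrane ligand of integrin alpha8 beta1. It lies on chromosome 3 (132881745 to 132950291, minus strand) and read 0.832, 0.0876 and 0.0278 CPM in unlasered and 0.113, 0.134, 0.196 and 0.135 CPM in lasered libraries, from 1 to 17 and from 5 to 9 reads. Unlasered library 1 was the highest and the other unlasered libraries the lowest of all. When all genes with any read were tested without the filter, the log2 difference was -0.75 for P3h2 (limma, adjusted p = 0.17), -0.63 for Vcan (adjusted p = 0.23) and -0.15 for Npnt (adjusted p = 0.68), on a scale where the added 1 CPM shrinks the change of genes this low.

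The genes whose profile over the 7 libraries was most like that of Fn1 were Emp1 (a small membrane protein), Csf2rb2 (a mouse IL-3 receptor subunit), C3 (the central complement component), Siglec1 (the macrophage sialic acid receptor CD169) and Myo1e (a class I myosin). Likeness was the root mean square difference of log2(CPM + 1) after centring, which was 0.452, 0.478, 0.545, 0.547 and 0.574 for these genes against a median of 1.5 over the 10283 genes compared. Siglec1 read 51.1, 83.7 and 138 CPM in unlasered and 475, 338, 284 and 207 CPM in lasered libraries. In all 5 the unlasered library nearest to the lasered ones was library 3 and the lowest lasered library was library 4, as for Fn1, except that their groups did not overlap. The profile includes the difference between the groups, so the higher lasered levels of these genes follow from how they were found, and Csf2rb2 has a close paralog, Csf2rb, with which reads may be shared.

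**Figure D4:**
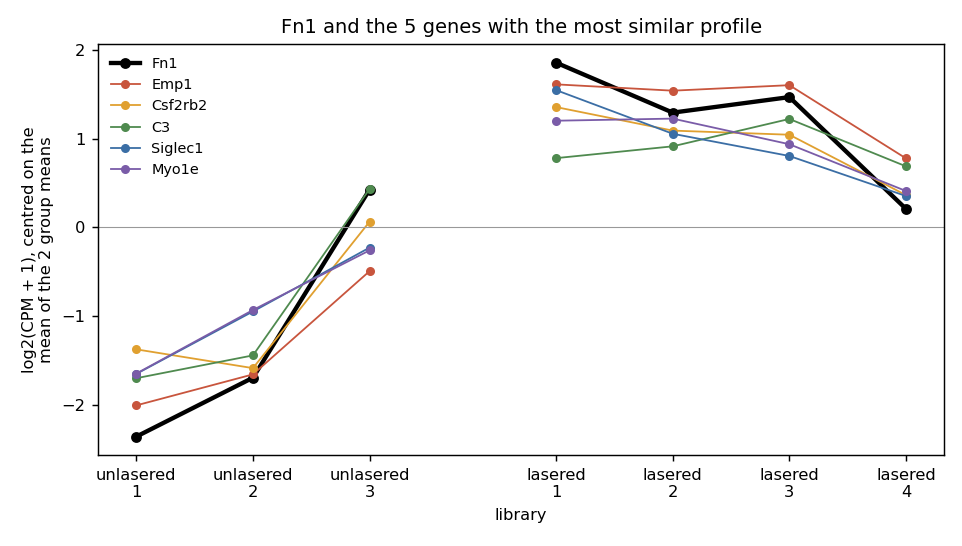
Profiles of Fn1 (thick black line) and the 5 genes most like it over the 7 libraries, as log2(CPM + 1) centred on the mean of the 2 group means. Lines join the values of one gene and imply no order of libraries. Across the groups, unlasered library 3 and lasered library 4 lie closest to each other in all 6 profiles.

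Members were set beside 7 other lists of matrix genes from the same fit. Efemp1, Smoc1, Col5a1, Hspg2, Sdc2, Lrp2 and Tgfb2 stayed under 1 CPM in every lasered library. These genes entered the fit only through the 3 unlasered libraries, so the filter itself favoured a fall for them. They also enter the medians of their lists. Of 44 other matrix glycoproteins, 17 were tested, 2 rose and 4 fell, with a median log2 difference of 0.05. Spp1, which encodes osteopontin, a secreted RGD-bearing protein of reactive macrophages, read 44.9, 49.2 and 62.7 CPM in unlasered and 1421, 874, 1385 and 487 CPM in lasered libraries, a log2 difference of 4.18 (SE 0.34, limma, adjusted p = 0.0015). Ecm1, extracellular matrix protein 1, rose by a log2 difference of 2.48 (SE 0.24, adjusted p = 0.00232). Neither gene had overlapping groups, and whether their differences exceed that of Fn1 was not tested.

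Vtn, which encodes vitronectin, fell by 3.42 on the log2 scale (SE 0.70, limma, adjusted p = 0.0261), from 31.6, 268 and 82.4 CPM to 12.1, 7.51, 12.7 and 2.29 CPM. Its highest value was in unlasered library 2, where transcripts of rod photoreceptors were also highest, and their part in the fall of Vtn was not tested. The laminin chain gene Lama2 (-2.06), the calcium-binding Smoc1 (-1.40) and the fibulin Efemp1 (-1.36) fell as well, with limma adjusted p = 0.0383, 0.0175 and 0.0479. Lama2 read 7.94 to 49.5 CPM in unlasered and 3.63 to 5.33 CPM in lasered libraries. Smoc1 and Efemp1 were low throughout, at most 4.65 and 4.61 CPM in any library. Sparc, a collagen-binding matricellular protein, had the highest mean CPM of that list. It averaged 1346 ± 234 CPM in unlasered (SD, n = 3) and 1087 ± 329 CPM in lasered libraries (SD, n = 4). Sparc did not pass (log2 difference -0.34, limma, adjusted p = 0.397).

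Among collagen chains 10 of 25 were tested, 0 rose and 2 fell (median log2 difference -0.57). These were Col4a3 (-1.64, limma adjusted p = 0.0182) and Col5a1 (-0.99, adjusted p = 0.0196), both under 7 CPM in every library. The highest by mean CPM, Col14a1, averaged 72.5 ± 36.1 and 75.1 ± 15.1 CPM. Enzymes and chaperones of collagen, the class of P3h2, had 19 of 25 genes tested, of which Colgalt1, a collagen galactosyltransferase, rose (0.51, limma adjusted p = 0.0496) and P4ha2, a prolyl 4-hydroxylase subunit, fell (-0.98, adjusted p = 0.0231). Their median was -0.06, and the highest by mean CPM, P4hb, averaged 828 ± 52.6 and 867 ± 57.4 CPM. For proteoglycans and hyaluronan synthases, the class of Vcan, 7 of 22 were tested, with a median of -0.81. Of these, 0 rose and Hspg2 (perlecan) fell from at most 1.71 CPM (-0.81, limma adjusted p = 0.0401). Serglycin (Srgn), the highest by mean CPM, averaged 334 ± 50.2 and 293 ± 24.1 CPM.

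Receptors that bind these ligands were nearly all detected, with 18 of 19 tested, 0 higher and 2 lower (median log2 difference 0.11). The 2 that fell were syndecans, heparan sulphate proteoglycans of the membrane that bind fibronectin beside the integrins. Sdc4 read 101, 112 and 95.2 CPM in unlasered and 48.6, 62.9, 43.8 and 44.0 CPM in lasered libraries (-1.04, SE 0.16, limma adjusted p = 0.0106), and Sdc2 was lower from a level of at most 5.26 CPM (-1.92, adjusted p = 0.00605). The receptor with the highest mean CPM, the integrin subunit gene Itgb5, averaged 1975 ± 299 and 2380 ± 203 CPM and did not pass (0.28, limma adjusted p = 0.236).

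Of the clathrin adaptors and partners of Dab2, 15 are described here, all of them tested, of which 0 rose and 1 fell (median 0.13). This was the cargo receptor gene Lrp2 (-1.04, limma adjusted p = 0.014), which was under 3 CPM in every library. Clathrin heavy chain (Cltc) averaged 1129 ± 589 and 1211 ± 118 CPM and was highest in unlasered library 3, as Dab2 was. In the TGF-beta list 15 of 20 genes were tested, 0 rose, and the ligand gene Tgfb2 fell from at most 3.36 CPM (-1.17, limma adjusted p = 0.0352), with a median of -0.01. The receptor gene Tgfbr1, the highest there by mean CPM, averaged 1455 ± 479 and 1232 ± 260 CPM and did not pass (-0.22, limma adjusted p = 0.633).

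**Figure D5:**
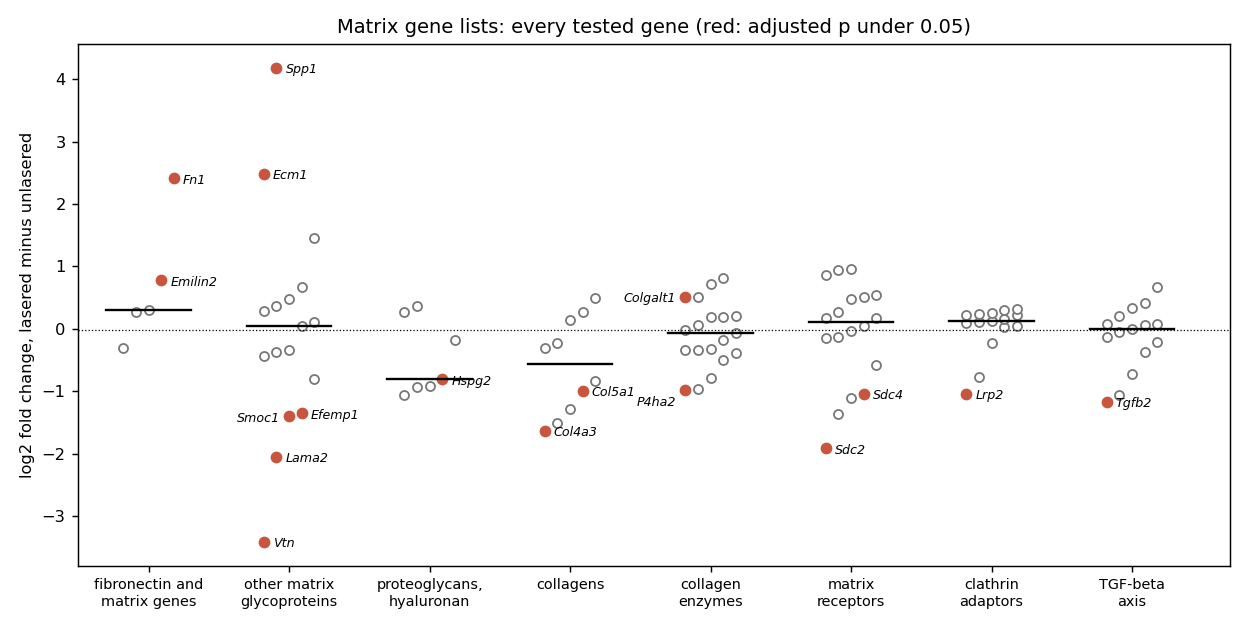
Log2 difference (lasered minus unlasered libraries) of every tested gene of the 8 members and of 7 other matrix lists. Red points have an adjusted p under 0.05 and are named, bars are list medians, and the dotted line is the median of all tested genes, -0.01. Spp1 (4.18), Ecm1 (2.48) and Fn1 (2.41) are the highest, and Vtn (-3.42) is the lowest.

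Summed markers of some other cells differed between the groups, while those of others overlapped. In bulk libraries fewer cells of a type and less RNA per cell cannot be told apart. The summed level of 13 microglial markers was 29957 to 35494 CPM in unlasered and 27880 to 36369 CPM in lasered libraries, so the labelled cell type was present throughout. The summed level of 14 rod photoreceptor genes was 2166, 19523 and 5666 CPM in unlasered and 314 to 1005 CPM in lasered libraries, with 13 of the 14 called lower. Markers of Müller glia and astrocytes were also lower, at 673 to 948 against 287 to 601 CPM, with 1 of 8 called lower and 1 higher. For 10 markers of border macrophages the summed ranges were 2826 to 3119 and 1956 to 2244 CPM. Of the 9 tested, 2 were called lower, Pf4 and Ms4a7, and 0 higher. The list was mixed, with 5 positive and 4 negative log2 differences and a median of 0.10. The part of these cells in the levels of the members was not tested.

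Fibroblasts and pericytes are rich sources of fibronectin in tissue. Their 11 markers summed to 4.00 to 8.62 CPM in unlasered and 23.6 to 42.1 CPM in lasered libraries, and most of the lasered sum was 1 gene, Cspg4 (NG2), at 20.0 to 37.1 CPM. Cspg4 read 0.613 to 4.14 CPM in unlasered libraries, rose after laser (log2 difference 3.13, limma, adjusted p = 0.00605) and was the 1 gene called among the 3 of this list that were tested. The collagen I chain genes Col1a1 and Col1a2 were at most 0.861 CPM in unlasered and at most 0.0445 CPM in lasered libraries, and Des and Lum did not exceed 3 reads in any library. For 9 endothelial markers the ranges were 17.1 to 63.6 and 19.5 to 32.01 CPM, with Cldn5 at or under 3 reads throughout, and for 8 markers of retinal pigment epithelium they were 24.7 to 28.5 and 23.9 to 25.8 CPM, with Lrat at or under 3 reads. None of the markers of these lists was at 0 in all libraries.

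Monocyte and dendritic cell markers differed most among the lasered libraries. The 10 monocyte markers other than Vcan, itself a monocyte marker, had sums of 34.9 to 109 CPM without laser, and of 175, 248, 44.2 and 15.7 CPM in lasered libraries 1 to 4, with Fcnb at or under 3 reads throughout. The 8 dendritic cell markers gave sums of 24.6 to 70.9 CPM without laser, and of 192, 203, 54.2 and 40.8 CPM in lasered libraries 1 to 4. Fn1 read 776, 525, 593 and 248 CPM in lasered libraries 1 to 4, and the part of these cells in its level was not tested. With lasered libraries 1 and 2 left out together, a setting added once the values had been seen, the log2 difference was 2.04 for Fn1 (limma, adjusted p = 0.29) and 0.86 for Emilin2 (adjusted p = 0.171). In that fit 10 genes were higher and 14 lower among all tested. Fewer libraries also mean less power, and without lasered library 2 alone 150 genes were higher and 114 lower. The reason for the loss of calls was not tested.

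Irf8 transcripts were present in all libraries labelled Irf8 KO, at 489 to 530 CPM in unlasered and 463 to 582 CPM in lasered libraries (log2 difference -0.04, limma, adjusted p = 0.875). All of these reads are listed jointly with Gm20388, a gene model that overlaps Irf8 and many other genes and whose own entry read 874 to 1045 CPM, so reads of the pair cannot be told apart. The position of the deletion within Irf8 was not used here, so these levels do not check the genotype. The library kit does not mark strand, so reads of a gene and of a partner on the opposite strand cannot be told apart. The exons of Fn1 share 292 bases with Apol7d and those of Thbs1 share 208 bases with Gm29233, which were listed at 0.147 to 2.38 and 1.76 to 4.56 CPM. Those of Dab2 share 211 bases with the processed pseudogene Gm18888, for which no level is given here. P3h2 shares 1055 exonic bases with Gm4524 and some reads with AU015336, both listed at no more than 0.0979 CPM in any library.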

How the data were processed

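Adapters (cutadapt) and duplicates (FastUniq) were removed by the authors, who mapped the rest with bowtie2 and used HTSeq for gene counts (annotation version 90). Per the labels, the build was GRCm38. Bowtie2 does not align across introns, so reads over exon junctions may be missed. The deposited table carries TPM in its headings and holds CPM: in each library 100% of values were whole multiples of 1 read, within 6e-05. They were used without further scaling, which leaves differences in composition between libraries in place. The 8 members and all lists were chosen with earlier results of these data known.

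The comparison of lasered with unlasered libraries used limma (3.58.1, R 4.3.3) on log2(CPM + 1), with a trend and robust variances. Genes entered it if 3 or more libraries reached 1 CPM. Tests were two-sided with Benjamini-Hochberg adjustment and a threshold of 0.05. The study's methods used DESeq2. Here DESeq2 1.42.0 and edgeR 4.0.16 on recovered reads were alternatives, because the table holds CPM. The other alternatives were the pseudocount, the filter, scaling, a replicate block, libraries left out, and the study's thresholds. Those thresholds were an absolute log2 difference above 1.5, p under 0.05 and a level of at least 100 in either group. Here they were applied to unadjusted limma p-values and mean CPM. The study applied them to DESeq2 results and TPM, for Irf8 KO against wild type. The fit was tested on simulated data. Genes named were all members, Irf8, list genes past the threshold, and the tested gene of each list with the highest mean CPM. Also named were the 5 genes most like Fn1 with a mean of at least 10 CPM, markers, and genes that share reads with a member. Positions and lengths came from GENCODE M21, which held 99.7% of the listed genes. 1 gene of the lists is not reported here.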

Additional observations from a re-analysis of the deposited data

Results flagged for a closer look

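The level of Tgfbi in lasered library 4, 868 CPM, stood apart from the other 3 lasered libraries, which lay between 932 and 934 CPM. The gap of this library to its nearest neighbour was nearly the whole range of the group. The test for a single outlying value was applied to the 8 members over the 4 lasered libraries, and chance flags about 1 in 20 such groups.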

How the results depend on the processing

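The log2 differences of Fn1, Emilin2, Tgfbi and Dab2 kept their sign under all 17 alternatives, and that of Thbs1 lay between -0.26 (without unlasered library 1) and 0.77 (without unlasered library 2). The number of members called higher, 2 as reported, was 0 without a filter on low values, without trend and robust variances, and with lasered libraries 1 and 2 left out together, and 1 with a mean of at least 10 CPM, in edgeR and in DESeq2 (Emilin2 in each) and under the study's thresholds (Fn1). Over all genes, 212 were higher and 173 lower without the filter, 1177 and 1141 in DESeq2, 10 and 14 without lasered libraries 1 and 2, and 22 and 32 under the study's thresholds applied to the limma fit. With a mean of at least 10 CPM, 466 were higher and 160 lower, so that 74.4% of calls were higher. TMM scaling raised the number higher to 1040, so that 69.1% of calls were higher against 55.7%, and moved the median of all genes by 0.11. Leaving out each library in turn gave 150 to 815 genes higher, 114 to 433 lower, 0 to 3 members higher and 0 to 0 members lower. Deviations of same-numbered libraries correlated at -0.183, -0.126 and -0.0234, and those of differently numbered libraries at -0.109 to 0.205. Such correlations cannot show whether replicate numbers pair the samples. A replicate block left 2 genes higher, 1 lower and 0 members. The cause of these changes was not tested. Depth limits Vcan, P3h2 and Npnt, which had 1 to 43 reads in a library.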
